A study of Mus musculus with 8 samples.

Results

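The kidney of db/db mice given nanoparticles with a control miRNA was set against the kidney of normal mice, 2 arrays against 2, which is 4 of the 8 arrays of the series. The 4 arrays were selected by their labels, with earlier results of these data known, and 22373 genes were compared. The gene lists below were also drawn up with those results known. Normal mice (m/m, listed as -m+/m+) and db/db mice (+Leprdb/+Leprdb) were all males of the C57BLKS/J Iar background at 20 weeks of age, with 2 mice per group, and each array read 1 kidney RNA sample. The control miRNA was carried by nanoparticles labelled PEI-NPs, and the normal mice received none, so genotype and nanoparticles differ together in this comparison. The study also held 2 untreated db/db mice, used below to set the nanoparticle group beside the same genotype without treatment, and 2 db/db mice given a miR-181b-5p mimic, used only in the estimate of spread. No dose, route or schedule of the treatment is stated in the labels.

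The Leprdb allele disrupts the long, signalling form of the leptin receptor, and homozygous mice overeat, become obese and develop diabetes with enlarged glomeruli and albumin in the urine. The proximal tubule, which makes up most of the kidney cortex, reabsorbs glucose and filtered proteins, activates vitamin D and secretes organic anions and cations through transporters of the Slc22 and Slco families. In male mice it also expresses a set of genes that depend on androgen. A whole kidney sample mixes all these cells, and a lower level of a marker from fewer cells of a type cannot be told apart from less RNA per cell.

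Levels below are log2 of the background-subtracted signal, shifted so that 0 is the 75th percentile of the array. Between 56.5% and 62.5% of spots lay well above background on the 8 arrays, and no spot was saturated. Normal replicates correlated at r = 0.9919 and control miRNA replicates at r = 0.995, and 684 and 358 genes lay more than 2-fold apart within these pairs. Mimic replicate 1 stood apart from the other 7 arrays on the first principal component, and the 2 mimic arrays lay more than 2-fold apart for 2466 genes. All 8 arrays shared 1 slide. Normal and control miRNA arrays occupied columns 1 and 2 of that slide, so each column holds 1 array of each group. Normal arrays lay in row 1 and control miRNA arrays in row 2, so row and group cannot be told apart, and untreated db/db arrays lay in row 1 with the normal arrays. Each comparison rests on 2 mice per group, an exact permutation test of 2 against 2 cannot give a p below 0.333, and every p below comes from the variance shared across genes and groups in limma, with Benjamini-Hochberg adjustment over the 22373 genes.

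In the control miRNA db/db kidney, the glutathione S-transferase Gsta2, the vitamin D genes Gc and Cyp27b1 and the kynurenine enzyme Kynu were 12.4-fold to 22.4-fold higher than in normal kidney. The transporters Slc22a7 and Slco1a1 were 118-fold and 76.5-fold lower, and the steroid and bile acid hydroxylase Cyp7b1 was 19.2-fold lower. At an adjusted p under 0.05, 419 of 22373 genes differed (1.87%), 151 higher (0.675%) and 268 lower (1.2%), and 314 of the 419 differed by 2-fold or more. The median log2 difference of all genes was -0.04, that of the higher genes was 1.17 and that of the lower genes was -1.34. The groups did not overlap for 59% of all genes and for each of the 419. Without overlap, the direction is the same in both array columns by construction. Leaving out mimic replicate 1, which is in neither group but enters the variance, raised the count to 2557, among them all of the 419. Leaving out a compared array instead left 22 genes without normal replicate 1, 30 without normal replicate 2, 22 without control miRNA replicate 1 and 17 without control miRNA replicate 2. Of 73 named genes that passed, 62 passed in none of these 4 fits and 6 in all 4, of which 5 were below background in 1 group, so that only Cyp7b1 was measured on all 4 arrays. With the mimic arrays out as well, an alternative chosen after seeing the data, leaving out a compared array left between 321 and 1966 genes, and 43 of the 73 named genes passed in all 4 fits. Leaving out either untreated db/db array left 53 genes, and with array column as a block 24 genes passed. Of the 73 named genes, 10 passed with the column block, 41 with the replicate number as a block and 29 with no filter on dim probes, and of the 51 list members that passed, 4 did so with the column block. Quantile normalization moved the median of all genes from -0.04 to 0.02 and the share of higher genes among those called from 36% to 48.5%.

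**Figure D1:**
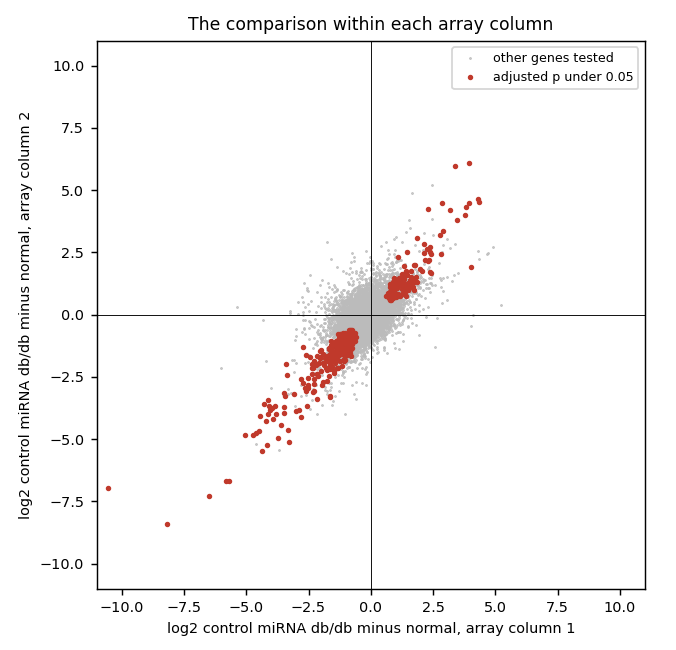
Log2 difference of control miRNA db/db from normal kidney in array column 1 (horizontal) and array column 2 (vertical), 1 point per gene, with the 419 genes at an adjusted p under 0.05 in red. The red points lie in the quadrants where both columns have the same sign, which must hold for groups that do not overlap. The grey points are centred near 0.

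Lepr itself was checked first, since it carries the db mutation. Its brightest probe, at chr4:101452666-101452725 (mm9, the build of all probe positions here), had levels of 3.12 and 3.08 in normal kidney and 2.36 and 2.11 in control miRNA db/db kidney. Both db/db arrays lay below both normal arrays, by a log2 difference of -0.87 (standard error 0.16), and the adjusted p of 0.0603 missed the threshold. A second probe, annotated to transcript variant 3, read -1.69 and -2.59 in normal and -4.91 and -3.77 in control miRNA db/db kidney. Its log2 difference of -2.20 missed the threshold too (limma adjusted p = 0.062 over all probes). The probe annotated to transcript variant 1 was not well above background on any array. The difference of the brightest probe passed without mimic replicate 1 (adjusted p = 0.0173), and its adjusted p ranged from 0.0173 to 0.293 over all alternatives.

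Of the 12 largest rises among genes measured on all 4 arrays compared, 4 lay close together on chromosome 9. Gsta2, a glutathione S-transferase that conjugates electrophiles to glutathione, had levels of 0.36 and 0.97 in normal and 4.67 and 5.63 in control miRNA db/db kidney, 22.4-fold higher (log2 difference 4.48, standard error 0.67; limma adjusted p = 0.0377). Gm10639, a gene model of the same cluster, read 1.5 and 2.23 in normal and 5.84 and 6.74 in db/db kidney, 21.5-fold higher. For both genes the lowest db/db array lay far above the highest normal array, and genes were chosen here for such a gap.

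The other pair were probes that the array names only by a genomic region. Their positions adjoin, at chr9:78116774-78116833 and chr9:78116834-78116893, and they were 18.4-fold and 32.7-fold higher. The Gsta2 probe lies at chr9:78178856-78178915 and the Gm10639 probe at chr9:78153243-78153302. The Gsta2 and Gm10639 probes, of 60 bases each, share a run of 30 bases, so signal from 1 of these transcripts can reach the probe of the other, and their values are not independent. Gsta4, on the same chromosome, had a log2 difference of 0.75 (adjusted p = 0.332), and Gsta3, on chromosome 1, of 0.91 (adjusted p = 0.172).

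The 250 bases before the start of Gsta2 and Gm10639 are shown because the 2 genes moved together. In a global alignment of the pair, 169 bases were identical, and these are in capitals. The windows are from RefSeq on GRCm38.p6, chr9:78347146-78347395 on the minus strand and chr9:78289678-78289927 on the plus strand.

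Gsta2: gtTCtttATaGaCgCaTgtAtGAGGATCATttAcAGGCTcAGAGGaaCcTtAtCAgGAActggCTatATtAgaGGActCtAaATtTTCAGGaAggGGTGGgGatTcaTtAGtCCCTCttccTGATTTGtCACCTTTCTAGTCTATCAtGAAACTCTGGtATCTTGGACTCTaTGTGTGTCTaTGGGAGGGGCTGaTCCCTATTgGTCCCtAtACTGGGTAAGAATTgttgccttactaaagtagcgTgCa
Gm10639: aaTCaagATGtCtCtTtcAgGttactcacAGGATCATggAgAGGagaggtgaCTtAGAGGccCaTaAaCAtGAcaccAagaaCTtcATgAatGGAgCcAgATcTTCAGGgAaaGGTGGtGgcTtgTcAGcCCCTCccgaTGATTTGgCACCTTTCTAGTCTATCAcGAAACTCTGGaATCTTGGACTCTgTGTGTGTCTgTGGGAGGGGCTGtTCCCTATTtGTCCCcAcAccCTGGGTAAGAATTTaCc

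Of the other rises, Gc, which encodes the plasma carrier of vitamin D, read 1.04 and 1.5 in normal and 4.85 and 5.81 in control miRNA db/db kidney, 16.7-fold higher (adjusted p = 0.0256). Cyp27b1, the enzyme that makes active vitamin D, read -2.39 and -1.89 in normal and 1.40 and 2.09 in db/db kidney, 14.8-fold higher (adjusted p = 0.0192). Both genes were chosen for passing with groups that do not overlap, so a gap between groups larger than the gap within them follows from that choice.

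Kynu, the kynureninase of tryptophan breakdown, rose 12.4-fold and Npl, a lyase that cleaves sialic acid, rose 6.20-fold. Tchhl1, a trichohyalin-like gene, rose 8.68-fold, and Asb11, of an ankyrin repeat and SOCS box family, rose 5.92-fold. An unnamed probe on chromosome 1 rose 12.8-fold. Gm6614 rose 5.46-fold from levels of -3.87 and -4.03, and its probe at chr6:141920717-141920776 lies between those of Slco1a1 (chr6:141856493-141856552), which was among the largest falls, and Slco1a6 (chr6:142034707-142034766), which had a log2 difference of -0.40 (adjusted p = 0.636).

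Falls were larger than rises. Slc22a7, an organic anion transporter of the tubule, had levels of 5.82 and 5.52 in normal and -0.67 and -1.76 in control miRNA db/db kidney, 118-fold lower (log2 difference -6.89, standard error 0.61; adjusted p = 0.0121). Slco1a1, another organic anion transporter, read 2.15 and 3.01 in normal and -3.67 and -3.68 in db/db kidney, 76.5-fold lower (adjusted p = 0.0055). Both went from a level well above the 75th percentile of the array to one below it.

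Cyp7b1 read 5.75 and 5.56 in normal and 1.30 and 1.48 in control miRNA db/db kidney (log2 difference -4.26, standard error 0.18; adjusted p = 0.000935). It was the only gene among these 24 that also passed when any 1 of the 4 compared arrays was left out, with adjusted p from 0.0194 to 0.024. Masp2, a protease of the lectin complement pathway, fell 23.7-fold, and Slc22a26, an organic anion transporter, fell 18.8-fold. Acsm3, a medium-chain acyl-CoA synthetase, fell 15-fold, and Ceacam13 fell 16.3-fold.

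A pair of aldo-keto reductases on chromosome 13, which reduce steroids, fell together. Akr1c14 read 3.38 and 3.64 in normal and -0.09 and -0.31 in control miRNA db/db kidney, 13.1-fold lower, and Akr1c18 fell 13.7-fold. Ldc1, related to ornithine decarboxylase, fell 14.6-fold. The list of falls closed with 0610031O16Rik, at 10.2-fold, and an Ensembl-only transcript on chromosome 3, at 13.5-fold.

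**Figure D2:**
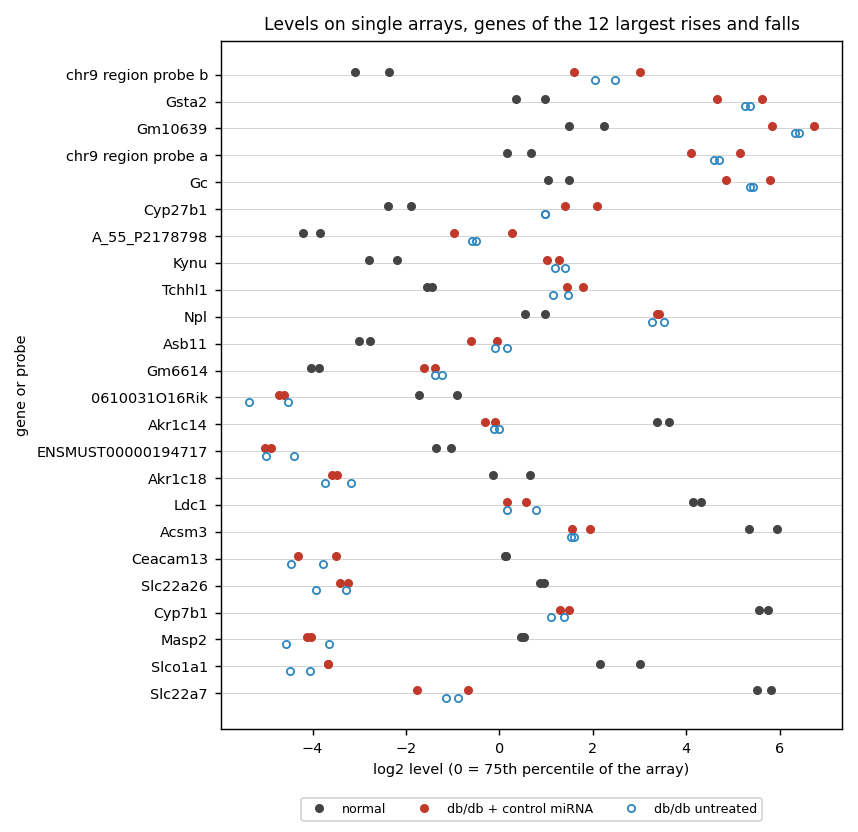
Log2 level on single arrays (horizontal, 0 is the 75th percentile of the array) of the genes with the 12 largest rises and 12 largest falls in control miRNA db/db kidney, with 2 points per group. The genes were chosen for not overlapping, so the red control miRNA points lie apart from the dark normal points in all 24. The open points of untreated db/db kidney, set against the same normal arrays, lie on the same side as the red points.

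Some genes were not measured above background in 1 group, and for these only a lower bound of the fold can be given. Sec14l3, a lipid-binding protein of the Sec14 family, read 0.99 and 1.09 in normal kidney and was not well above background on either control miRNA array, so it was at least 73.3-fold lower (limma adjusted p = 3.27e-05, the smallest of all genes). Sox2ot, a long noncoding RNA, was at least 5.62-fold lower, Neurog2, a transcription factor of neural progenitors, at least 3.1-fold lower and 1110032F04Rik at least 3.04-fold lower. In the other direction Alox5, the lipoxygenase that starts leukotriene synthesis, was at least 4.51-fold higher. Rasl10b was at least 1.85-fold and Zfp607b at least 1.74-fold higher, and Aunip passed with no bound above 1. The bound sets the mean of the bright group against the lowest signal that counts as well above background on each array of the dim group. It holds for the processing reported and not for every alternative. Over the alternatives the log2 difference ran from -8.34 to -4.26 for Sec14l3 and from -4.09 to -1.01 for Neurog2. It ran from 0.77 to 2.75 for Alox5 and from 0.38 to 3.29 for Rasl10b.

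Of 15 measured genes known to depend on androgen in the male mouse kidney, 7 fell, none rose and 8 did not pass, against 1.2% lower among all genes, and the median log2 difference was -1.49. Beside Cyp7b1, Slco1a1 and Acsm3, the monooxygenase Cyp4b1 fell 3.58-fold, Cyp2e1, which oxidises ethanol and ketones, fell 3.03-fold, and the glucuronosyltransferases Ugt2b37 and Ugt2b38 fell 3.35-fold and 2.80-fold. Cyp4b1 read 7.53 and 7.87 in normal and 5.96 and 5.75 in control miRNA db/db kidney, with no overlap, as for every gene that passed.

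The 8 that did not pass had log2 differences below 0 too. Odc1, the ornithine decarboxylase of polyamine synthesis, differed by -1.25 (adjusted p = 0.059). Kap, the kidney androgen-regulated protein, read 9.21 and 9.29 in normal and 8.48 and 7.95 in db/db kidney (log2 difference -1.03; adjusted p = 0.21). The control arrays lay below the normal arrays for all 15 genes, against 32.8% of all genes. The list median was -1.13 in array column 1 and -1.88 in column 2.

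Organic ion transporters carry drugs, urate and waste products across the tubule. Of 30 measured, 6 fell and 1 rose, against 1.2% lower and 0.675% higher among all genes. Beside Slc22a7, Slco1a1 and Slc22a26, the cation transporter Slc22a2 read 5.45 and 5.73 in normal and 4.43 and 4.58 in control miRNA db/db kidney, 2.12-fold lower (adjusted p = 0.0347). The urate transporter Slc22a12 fell 2.15-fold and Slco3a1 fell 2.34-fold. Abcc4, an efflux pump for organic anions, was the 1 that rose, from 1.41 and 1.17 to 2.75 and 3.13, 3.14-fold. The main anion uptake carrier Slc22a6 had a log2 difference of -0.56 (adjusted p = 0.18).

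Of 29 conjugating enzymes measured, 6 fell and 2 rose, against the same shares of all genes (1.2% and 0.675%). The 6 were Ugt2b5, Ugt2b35, Ugt2b36, Ugt2b37 and Ugt2b38, glucuronosyltransferases of 1 cluster on chromosome 5, and Ugt8a, which makes galactosylceramide. Ugt2b5 read 4.32 and 4.88 in normal and 2.86 and 2.6 in control miRNA db/db kidney, 3.66-fold lower (adjusted p = 0.0248). Ugt2b34, in the same cluster, went the other way, from -0.16 and -0.19 to 2.17 and 2.02, 4.81-fold higher (adjusted p = 0.0115). Members of this family resemble each other in sequence. The probes of Ugt2b36, Ugt2b37 and Ugt2b38 share runs of at most 7 bases, and whether transcripts of 1 member reach the probe of another was not tested. Gsta2 was the other rise.

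Podocytes wrap the glomerular capillaries and hold the filtration slit. Of 16 podocyte genes measured, 3 rose and 13 did not pass, and the median was 0.78, against -0.04 for all genes. At the brightest probe of each gene, all 16 differences were above 0. Wt1, the transcription factor that keeps podocyte identity, read 0.14 and 0.01 in normal and 1.21 and 1.09 in control miRNA db/db kidney, 2.10-fold higher (adjusted p = 0.0261). Synpo, an actin-binding protein of the foot processes, rose 2.24-fold, and Podxl, the charged coat protein of the podocyte, rose 2.15-fold.

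Both normal arrays lay below both db/db arrays for 13 of the 16 genes, against 26.2% of all genes. Nphs1, the slit protein nephrin, had a log2 difference of 1.06 at its brightest probe (adjusted p = 0.077) and of 1.62 at a dimmer probe (adjusted p = 0.0102 over all probes). Dimmer probes of Wt1 and Synpo went the other way, at -0.39 for Wt1 and -0.08 and -0.13 for Synpo, and none of the 3 passed. So did dimmer probes of Vegfa, at -0.47 and -0.68, and of Cd2ap, at -0.31, which did not pass either. Averaged over all probes of the gene, Wt1 had a log2 difference of 0.34.

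Among endothelial genes 3 of 16 rose, against 0.675% of all genes, and the control arrays lay above the normal arrays for 6, against 26.2%. Tek, the angiopoietin receptor, read -1.60 on both normal arrays and -0.65 and -0.61 on the control miRNA arrays, 1.96-fold higher, Ehd3, of glomerular endothelium, rose 1.78-fold, and Eng, a co-receptor for TGF-beta, rose 1.66-fold. The median of the 16 was 0.12. Of 13 intercalated cell genes, Car2, a carbonic anhydrase, rose 2.08-fold and the other 12 did not pass. Among 22 proximal tubule genes 2 fell, Ggt1, which breaks down glutathione, by 2.17-fold and Slc22a12. The median was -0.04, near that of all genes, but single differences ran from -2.925 to 0.905. The control arrays lay below the normal arrays for 9, against 32.8% of all genes, and above them for 6, against 26.2%. None of 11 thick ascending limb, 11 distal convoluted tubule or 12 principal cell genes passed.

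**Figure D3:**
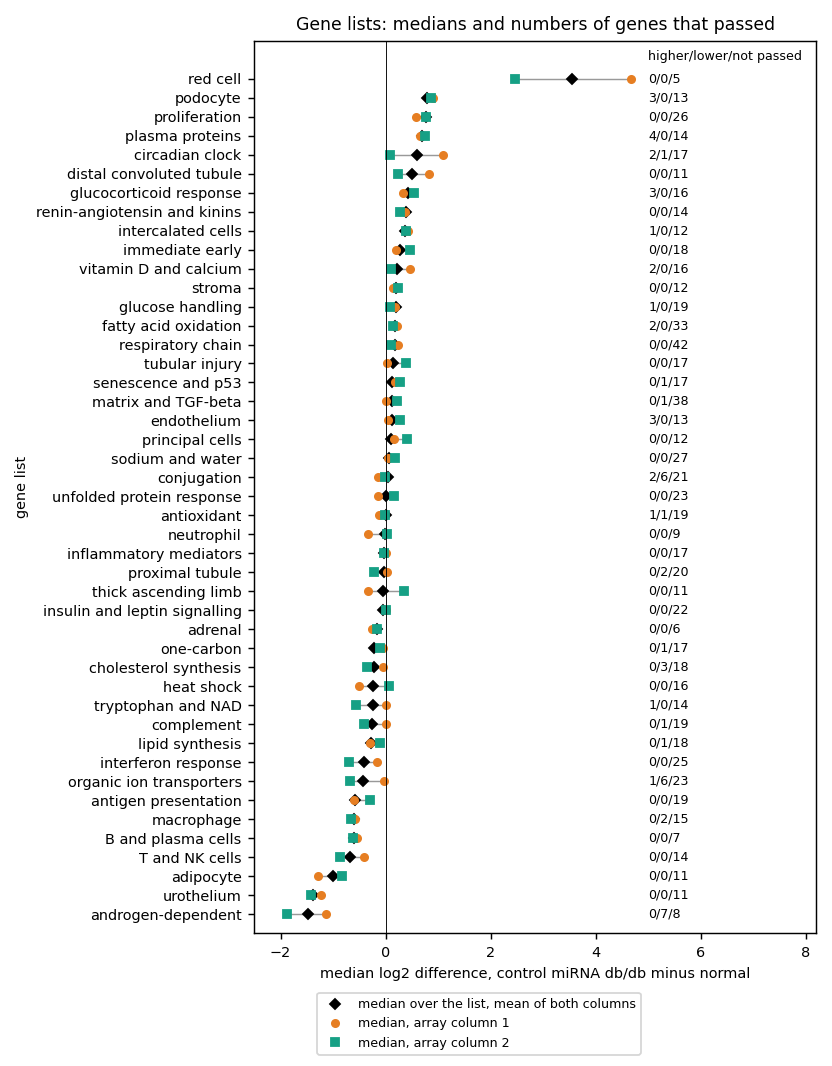
Median log2 difference of control miRNA db/db from normal kidney (horizontal) for 45 gene lists, over both array columns (diamond) and within column 1 (circle) and column 2 (square), with the number of genes higher, lower and not passed at the right. The androgen-dependent and podocyte lists lie on 1 side of 0 in both columns, and the red cell list has the highest median with none of its 5 genes passed.

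Of 17 macrophage genes measured, 2 fell and 15 did not pass, with a median of -0.60. At the brightest probe of each gene, all 17 differences were below 0. A dimmer probe of Cd14 read 0.03. Of all genes 1.2% fell, and 45.5% had a difference above 0. Csf1r, which receives the growth signal of macrophages, read 3.88 and 3.75 in normal and 2.66 and 2.59 in control miRNA db/db kidney, 2.29-fold lower (adjusted p = 0.0385), and Ms4a7 fell 2.01-fold. A dimmer probe of Csf1r had a log2 difference of -0.25 (limma adjusted p = 0.405 over all probes). Cd68 had a log2 difference of -0.24 (adjusted p = 0.76). None of 14 T and NK cell genes passed, with a median of -0.68, and none of 7 B and plasma cell genes, with a median of -0.60. None of 25 interferon response genes and none of 19 antigen presentation genes passed.

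Lists for tissues that can be carried along with a kidney differed between arrays of 1 group. The 11 urothelial genes, which mark the lining of the renal pelvis, had a median level of 0.33 and -1.31 on the normal arrays and -0.97 and -3.04 on the control miRNA arrays. Upk2, which encodes uroplakin 2, read 0.32 and -1.54 in normal and -1.0 and -3.74 in control miRNA db/db kidney. The 11 adipocyte genes had a median level of 1.13 and -2.26 on the normal arrays and -1.45 and -3.67 on the control miRNA arrays, and Cfd, the adipocyte protease adipsin, read 5.25 and 1.10 against 0.64 and -4.09. In both lists replicate 1 was above replicate 2 in each group, and no gene passed. The summed level of the list ran from 4.02 to 4.84 in normal and 3.65 to 4.19 in db/db kidney for urothelium, and from 6.48 to 6.91 and 7.13 to 7.16 for adipocytes. Pck1, which the proximal tubule also makes, had the highest level of the adipocyte list, at 5.55 and 6.31 in normal and 7.03 and 7.01 in control miRNA db/db kidney.

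Of 5 red cell genes none passed, with a median of 3.56. The Hba-a1 and Hba-a2 probes, of 60 bases each, share a run of 59 bases, so their values are not independent. Hba-a1, which encodes alpha globin, read 2.23 and 3.25 in normal and 6.90 and 5.70 in control miRNA db/db kidney, without overlap (adjusted p = 0.28). Their summed level ran from 3.36 to 4.39 in normal and 6.83 to 8.02 in db/db kidney. The part of urothelium, fat and blood in the other differences was not tested. Of the adrenal genes 6 of 11 were measured and none passed.

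**Figure D4:**
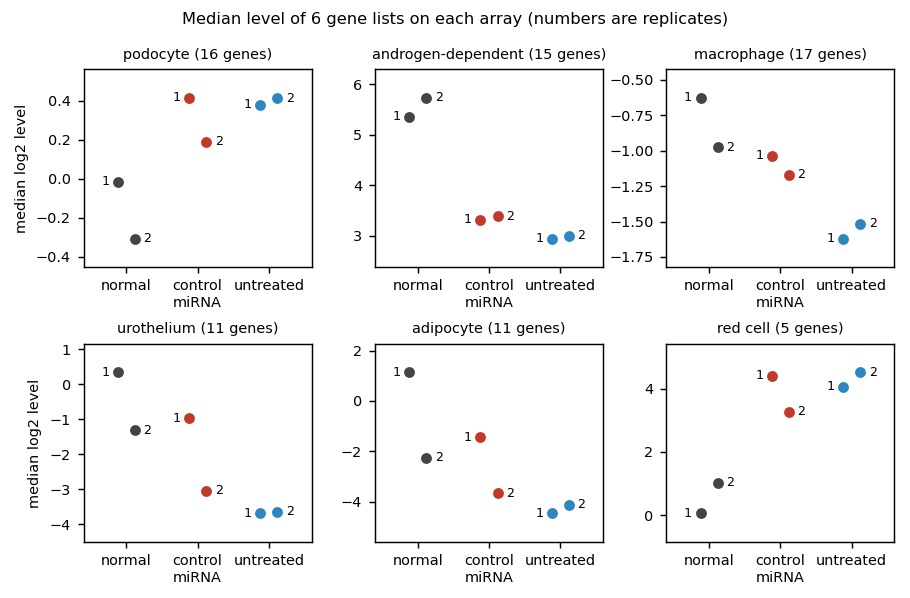
Median log2 level of 6 gene lists (vertical, each panel with its own range) on the normal, control miRNA db/db and untreated db/db arrays, with replicates numbered. The androgen-dependent list separates normal from both db/db groups, while the urothelium and adipocyte lists differ as much between replicates as between the normal and control miRNA groups.

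In the metabolic and clock lists that follow, counts stand against 1.87% of all genes called, 0.675% higher and 1.2% lower. Of 21 cholesterol synthesis genes 3 fell. Cyp51, the lanosterol demethylase, read 3.91 and 4.29 in normal and 1.78 and 1.85 in control miRNA db/db kidney, 4.89-fold lower (adjusted p = 0.0361). Idi1, the isopentenyl isomerase, fell 3.91-fold. Among the 18 that did not pass, Hmgcs1 differed by -0.38 (adjusted p = 0.3), Lss by 0.35 (adjusted p = 0.15), and the median was -0.23. Of 19 lipid synthesis genes only Me1, the malic enzyme that supplies NADPH, fell, by 2.37-fold. Fasn, fatty acid synthase, read 4.85 and 3.66 against 2.69 and 2.6, and did not pass (adjusted p = 0.0798).

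Among 35 fatty acid oxidation genes 2 rose. Cyp4a14, an omega-hydroxylase, read -3.60 and -4.93 in normal and -0.22 and 1.03 in control miRNA db/db kidney (fitted log2 difference 4.67, adjusted p = 0.0254; 3.02 to 5.33 over the alternatives). Fabp1, the liver-type fatty acid binding protein, read -4.33 and -4.83 in normal and -2.03 and -0.58 in db/db kidney (fitted log2 difference 3.28, adjusted p = 0.0374; 1.61 to 4.01 over the alternatives). Each was well above background on only 1 of the 2 normal arrays, so the size of the difference is uncertain. Cpt1a, the entry step of mitochondrial oxidation, differed by 0.08 (adjusted p = 0.84). None of 42 respiratory chain genes passed, with a median of 0.17.

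Cyp4a14 and Fabp1 are textbook targets of PPAR-alpha, which binds a direct repeat with 1 spacing base. The 250 bases before Fabp1 (chr6:71199629-71199878, GRCm38.p6, plus strand, RefSeq) are shown with the match to 2 copies of AGGNCA with 1 base between them, searched on both strands, in capitals. Of 32851 such windows 0.338% held this motif. The window of Cyp4a14 is not shown, and whether PPAR-alpha acts on either gene here was not tested.

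Fabp1: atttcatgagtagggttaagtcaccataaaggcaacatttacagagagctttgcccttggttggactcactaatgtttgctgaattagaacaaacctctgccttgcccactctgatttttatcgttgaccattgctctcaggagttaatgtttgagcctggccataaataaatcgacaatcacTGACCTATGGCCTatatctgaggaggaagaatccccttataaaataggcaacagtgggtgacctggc

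Of 18 vitamin D and calcium genes only Gc and Cyp27b1 passed. Cyp24a1, which breaks down active vitamin D, read 1.20 and 1.04 against 3.61 and 2.32 (log2 difference 1.85; adjusted p = 0.12). The calcium binding protein Calb1 differed by 1.75 (adjusted p = 0.098) and the calcium channel Trpv5 by 1.31 (adjusted p = 0.062). Among 18 plasma protein genes 4 rose: Gc, Apoe, which carries lipids, by 2.86-fold, Ttr, which carries thyroid hormone, by a fitted log2 difference of 2.50, and the clotting factor F10 by at least 5.36-fold. Ttr was well above background on 1 of the 2 normal arrays. The bound of F10 holds for the processing reported, and its log2 difference ran from 1.07 to 4.04 over the alternatives.

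In smaller numbers, Kynu was the only 1 of 15 tryptophan and NAD genes to pass, while Ido2, an indoleamine dioxygenase, had a log2 difference of -1.53 (adjusted p = 0.0504). Pklr, liver pyruvate kinase, rose 2.04-fold among 20 glucose handling genes, and Mat2a, which makes S-adenosylmethionine, fell 1.61-fold among 18 one-carbon genes. Col4a3, a collagen of the glomerular basement membrane, fell 2.40-fold as the only 1 of 39 matrix and TGF-beta genes to pass. Glb1, the lysosomal galactosidase, fell 1.90-fold. None of 17 tubular injury genes passed. None of 26 proliferation genes passed, with a median of 0.76, and the control arrays lay above the normal arrays for 21 of them, against 26.2% of all genes.

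Of 20 clock genes 2 rose and 1 fell. Per1, a repressor of the clock loop, read 1.40 and 1.34 in normal and 2.67 and 2.6 in control miRNA db/db kidney, 2.40-fold higher (adjusted p = 0.0153). Wee1, a cell cycle kinase under clock control, rose 3.00-fold. Npas2, an activator of the loop, was at least 2.54-fold lower in the processing reported, with no control miRNA array well above background. Its log2 difference ran from -2.46 to -0.62 over the alternatives. Per2 read -2.32 and -0.85 in normal and 0.73 and 0.66 in db/db kidney (adjusted p = 0.07), so the normal arrays were far apart. Over the 20 genes the median size of the gap was 0.91 between the 2 normal arrays and 0.13 between the 2 control miRNA arrays. The list median was 1.09 in array column 1 and 0.08 in column 2, so it rests largely on normal replicate 1. The labels do not state the time of day at collection.

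Per1 also belongs to 19 glucocorticoid response genes, of which 3 rose, against 0.675% of all genes. The other two were the metallothioneins Mt1, which read 6.12 on both normal arrays and 6.91 and 7.12 on the control miRNA arrays, 1.86-fold higher, and Mt2, 1.78-fold higher. Both bind zinc and copper, and for both the groups did not overlap, as for every gene that passed.

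The 250 bases before the start of Per1, Mt1 and Mt2 are shown since these are the glucocorticoid response genes that passed. All are on the plus strand of GRCm38.p6 in RefSeq, at chr11:69098699-69098948 for Per1 (the first of its 2 windows), chr8:94178839-94179088 for Mt1 and chr8:94172368-94172617 for Mt2. In Per1 the capitals mark an E-box, CACGTG, which begins 166 bases before the start, and a D-box, TTATGNAA, 24 bases before it. In Mt1 and Mt2 they mark TGCNCNC, a loose form of the metal response core, with 1 match in Mt1 and 5 in Mt2. This form allows any base at each N, so it also matches sequences outside the stricter core. Both strands were searched, no 2 matches overlap, and the counts hold for these windows only. Different motifs are marked in Per1 and in the metallothioneins, and their part in these differences was not tested. Of all 32851 windows, 6.02% held the E-box, 3.07% the D-box and 44.4% this loose form, and 0.344% held 5 or more matches to it.

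Per1: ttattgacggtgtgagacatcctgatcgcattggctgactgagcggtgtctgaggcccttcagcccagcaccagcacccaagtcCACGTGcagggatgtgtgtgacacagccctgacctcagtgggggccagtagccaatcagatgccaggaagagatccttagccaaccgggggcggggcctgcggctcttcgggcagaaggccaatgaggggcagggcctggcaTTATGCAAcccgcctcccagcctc
Mt1: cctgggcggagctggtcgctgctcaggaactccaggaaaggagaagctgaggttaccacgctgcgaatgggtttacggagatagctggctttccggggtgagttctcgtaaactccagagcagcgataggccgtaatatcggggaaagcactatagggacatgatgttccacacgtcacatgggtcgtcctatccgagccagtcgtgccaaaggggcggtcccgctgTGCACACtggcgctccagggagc
Mt2: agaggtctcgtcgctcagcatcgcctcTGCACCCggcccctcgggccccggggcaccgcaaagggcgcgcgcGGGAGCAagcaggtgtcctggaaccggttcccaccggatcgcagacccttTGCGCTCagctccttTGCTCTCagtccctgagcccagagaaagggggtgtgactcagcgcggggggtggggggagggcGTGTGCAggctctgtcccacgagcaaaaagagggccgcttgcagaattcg

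The control miRNA group was then set against untreated db/db kidney, to see whether nanoparticles with a control miRNA changed the db/db kidney. At an adjusted p under 0.05, 0 of 22373 genes differed (0%) in limma, and 726 (3.24%) had an unadjusted p under 0.05. The smallest adjusted p was 0.912, and the count was 0 in every alternative run. The median size of the log2 difference was 0.10, against 0.24 for control miRNA against normal kidney. The arrays of the 2 db/db groups did not overlap for 39.8% of genes. Row and column of the slide both differ between these groups, so neither can be told apart from the treatment.

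For the named genes the interval of this difference shows how much of a change 2 arrays against 2 could have missed. Cyp7b1 differed from untreated db/db kidney by 0.14 on the log2 scale (95% interval -0.29 to 0.56), and Gsta2 by -0.17 (-1.78 to 1.45). Slc22a7 differed by -0.21 (-1.68 to 1.27), and Cyp27b1, the vitamin D enzyme, by 0.77 (-0.23 to 1.77). The interval for Cyp7b1 is narrow against its difference from normal kidney, while those for Gsta2 and Slc22a7 allow a change of over 2-fold either way. These genes were chosen for passing against normal kidney with the same fitted variance, which favours narrow intervals.

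Untreated db/db kidney, tested against the same 2 normal arrays, had 791 genes past the threshold (3.54%), 279 higher and 512 lower. The share of higher genes among these was 35.3%, and 51.3% under quantile normalization. Both comparisons share the normal arrays, so their likeness is not independent. The log2 difference from normal was -4.40 untreated and -4.26 with control miRNA for Cyp7b1, -6.68 and -6.89 for Slc22a7, and 4.65 and 4.48 for Gsta2. The genes with the smallest unadjusted p between the 2 db/db groups included Snx29, a sorting nexin, higher by 0.77 with control miRNA, and Pim3, a kinase, and Cdr2, lower by 0.63 and 0.77. None of the 3 passed.

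**Figure D5:**
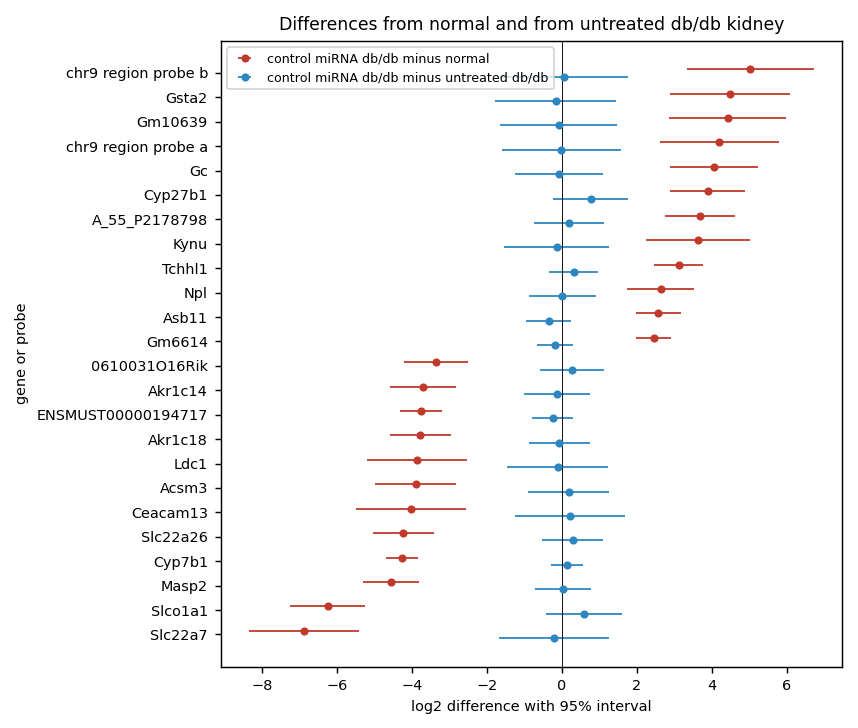
Log2 difference with its 95% interval (horizontal) for the genes of the 12 largest rises and 12 largest falls, of control miRNA db/db kidney from normal kidney (red) and from untreated db/db kidney (blue). These genes were chosen for passing in the red comparison, so red intervals that exclude 0 follow from that choice. The blue intervals all include 0. They share the control miRNA arrays and the fitted variance with the red comparison, so the choice acts on them too.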

How the data were processed

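Kidney RNA was read on Agilent 1-colour arrays, with Cy3-labelled cRNA made from 50 ng of RNA. Per the file headers, Agilent Feature Extraction 12.0.3.1 gave the intensity of each spot after background subtraction. The deposited table gives, for each probe, a ratio relative to the probe's median over the 8 arrays, and was used only as an alternative. Spots of 1 probe were averaged, 4 of 56605 probes were dropped as outliers, and log2 intensity was shifted by the 75th percentile of each array. Probes had to exceed background clearly on 2 of 2 arrays in 1 or more groups, which kept 33638, with the brightest probe for each of the 7638 genes that had several. By the RefSeq table of GRCm38.p6, 34595 probes were named by accession, 9174 by symbol and 284 by synonym, and 12548 kept the array's name.

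limma 3.58.1 in R 4.3.3 fitted 1 mean per group over 8 arrays (4 residual and 2.23 prior degrees of freedom) with Benjamini-Hochberg adjustment. The script was tested on simulated data. Nothing in the labels beyond mice per group describes separate handling, so p-values measure the spread between these samples, and precision is limited by the number of arrays. Folds are of mean log2 levels. Genes named were Lepr, the 12 largest rises and falls on measured genes, the 4 smallest p in each direction among genes dim in 1 group, up to 6 smallest p in each of 45 lists, the 6 smallest p in each direction against untreated kidney, and genes whose probes disagree. Further list members were named after their values were seen. The members and lists were chosen with earlier results of these data known. All value columns were matched to samples. Alternatives changed the arrays in the fit, blocks, background correction, scaling, filters and probe rule. No list was tested as a set. Values of some list members are not reported here, although the list counts include them.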

Additional observations from a re-analysis of the deposited data

How the results depend on the processing

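Each direction of the 32 genes chosen by size or by a bound held under every alternative. These genes were chosen for passing in the same arrays, and none of the 419 overlapped between groups. Leaving out arrays or changing the variance model could therefore not reverse them. The 419 genes became 954 with only the 4 compared arrays, 2557 without both mimic arrays, 961 with normexp background correction, 641 with an intensity trend in the variance, 127 with no filter on dim probes and 24 with array column as a block. Leaving out 1 array gave from 17 to 2557 genes, among them 1746 without normal replicate 1 and 1966 without normal replicate 2 once the mimic arrays were out too. The cause of these shifts was not tested, except that dropping arrays leaves fewer degrees of freedom. Normexp gave 45.5% of calls higher. The other settings stayed within 1.5 times.

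The labels give each group replicates 1 and 2 without saying that a number pairs mice, and deviations of same-numbered arrays correlated at r = 0.101. With the replicate number as a block 184 genes passed, and with the mimic arrays also out, a setting chosen after seeing the data, 1878 did. For untreated against normal kidney the block gave 473 in place of 791.

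That comparison also gave 3349 without both mimic arrays, 1869 with normexp, 1218 with the trend, 292 with no filter, 21 with the column block, 964 with quantile normalization (51.3% of calls higher), and 19 to 3349 with 1 array left out. Control miRNA against untreated kidney kept 0 calls, with 369 to 2050 genes at an unadjusted p under 0.05. Of named genes, 4 changed sign, none of them past the threshold in the fit reported: Mc2r (-0.32 with no filter), Ern1 (-0.070) and Tlr4 (0.086) with the mean of all probes, and Cryab (0.040 without normal replicate 1, and from -1.47 to 0.040 over the fits without 1 array). Medians of 13 lists near 0 changed sign in some setting. Genes near background have only bounds, since signal over background limits them, and the bounds hold for the processing reported.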
